A study of Mus musculus with 16 samples.

Results

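Chemokines are small secreted proteins that guide leukocytes to tissues by binding G protein-coupled receptors. In the gut, epithelial and stromal cells make some of them at rest: CCL25 draws CCR9+ lymphocytes to the small intestine, CCL28 draws CCR10+ IgA-secreting cells, and CXCL12 holds CXCR4+ cells near stroma and vessels. Others, such as CXCL9, CXCL10 and CCL2, are made on demand in inflamed tissue and call in CXCR3+ T cells and CCR2+ monocytes.

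The genes described here are 10 intestinal chemokines (Cxcl9, Cxcl10, Ccl25, Ccl28, Ccl20, Ccl5, Ccl6, Ccl2, Cx3cl1 and Cxcl12) among 23299 genes in the deposited table. Each was taken by its gene name, and its transcripts were summed. The RNA came from the terminal ileum of C57BL/6 mice that were wild-type (WT, Tas1r3+/+) or lacked the taste receptor subunit gene Tas1r3 (KO, Tas1r3-/-), assigned at 5 to 6 weeks of age. They were fed a normal diet (ND) with plain water or a Western diet (WD, a 60% high-fat diet with 30% sucrose water) for 10 weeks. The KO lacks the gene in every cell and was backcrossed to C57BL/6, with WT littermates as controls. The labels give 16 samples, 4 per group, with males 1 and 2 (M1, M2) and females 1 and 2 (F1, F2) in each. Nothing in the labels ties a library to a separately housed animal, so p-values measure the spread between these samples.

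Only 13 libraries were counted. Both female columns of the ND-fed KO group equalled weighted means of its male columns (0.75 and 0.25, or 0.625 and 0.375), except at 17 and 18 of 59258 transcripts, none of them a chemokine described here. Both female columns of the WD-fed KO group were related to each other and were averaged to 1 library (KO-WD F). The groups therefore held 4 WT-ND, 2 KO-ND (both male), 4 WT-WD and 3 KO-WD libraries. Values are RPKM (reads per kb of transcript, relative to library depth), scaled between libraries, and the depth implied by the values was 7003257 to 12384152 reads per library. Before scaling, the deposited columns summed to 817011 to 819992 on ND and to 542371 to 685274 on WD. The total of the deposited values thus differed by diet, and its part in the diet differences was not tested. Tas1r3 itself was 1.58 to 2.12 in WT-ND and 4.26 to 6.58 in WT-WD, against 0.000683 to 0.000758 in KO-ND and 0.00199 to 0.00519 in KO-WD. The ileal enterocyte markers Fabp6 and Slc10a2 were at 723 or above and at 19.2 or above in every library. In bulk tissue, fewer cells of a type and less RNA per cell cannot be told apart.

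Levels differed widely between the chemokines. Ccl25 had the highest mean scaled RPKM over the 13 libraries (260 ± 136, SD) and stood above 98.2% of the 19042 genes tested. Ccl6 followed (139.5 ± 37.3), then Cx3cl1 (34.5 ± 12.99), Cxcl12 (17.6 ± 9.004), Ccl5 (13.5 ± 9.06) and Ccl28 (8.19 ± 2.72). Cxcl10 (2.37 ± 1.83), Cxcl9 (2.07 ± 1.19), Ccl2 (1.44 ± 1.13) and Ccl20 (0.844 ± 0.485) were the lowest, and Ccl20 stood above 7.21% of the genes. Neighbours in this order were compared within libraries by a two-sided exact sign-flip permutation test, adjusted over 9 pairs. Ccl25 exceeded Ccl6 in 10 of 13 libraries (adjusted p = 0.0293), Ccl6 exceeded Cx3cl1 in 13 of 13 (adjusted p = 0.0022), and Cx3cl1 exceeded Cxcl12 in 10 of 13 (adjusted p = 0.0346). Ccl28 exceeded Cxcl10 in 11 of 13 (adjusted p = 0.00439). The pairs Cxcl12 and Ccl5, Ccl5 and Ccl28, Cxcl10 and Cxcl9, Cxcl9 and Ccl2, and Ccl2 and Ccl20 did not pass, with adjusted p from 0.0699 to 0.7. The low genes rested on few reads, from 0 to 30 per library for Ccl2 and from 1.8 to 16.5 for Ccl20, against 795 to 6003 for Ccl25.

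**Figure D1:**
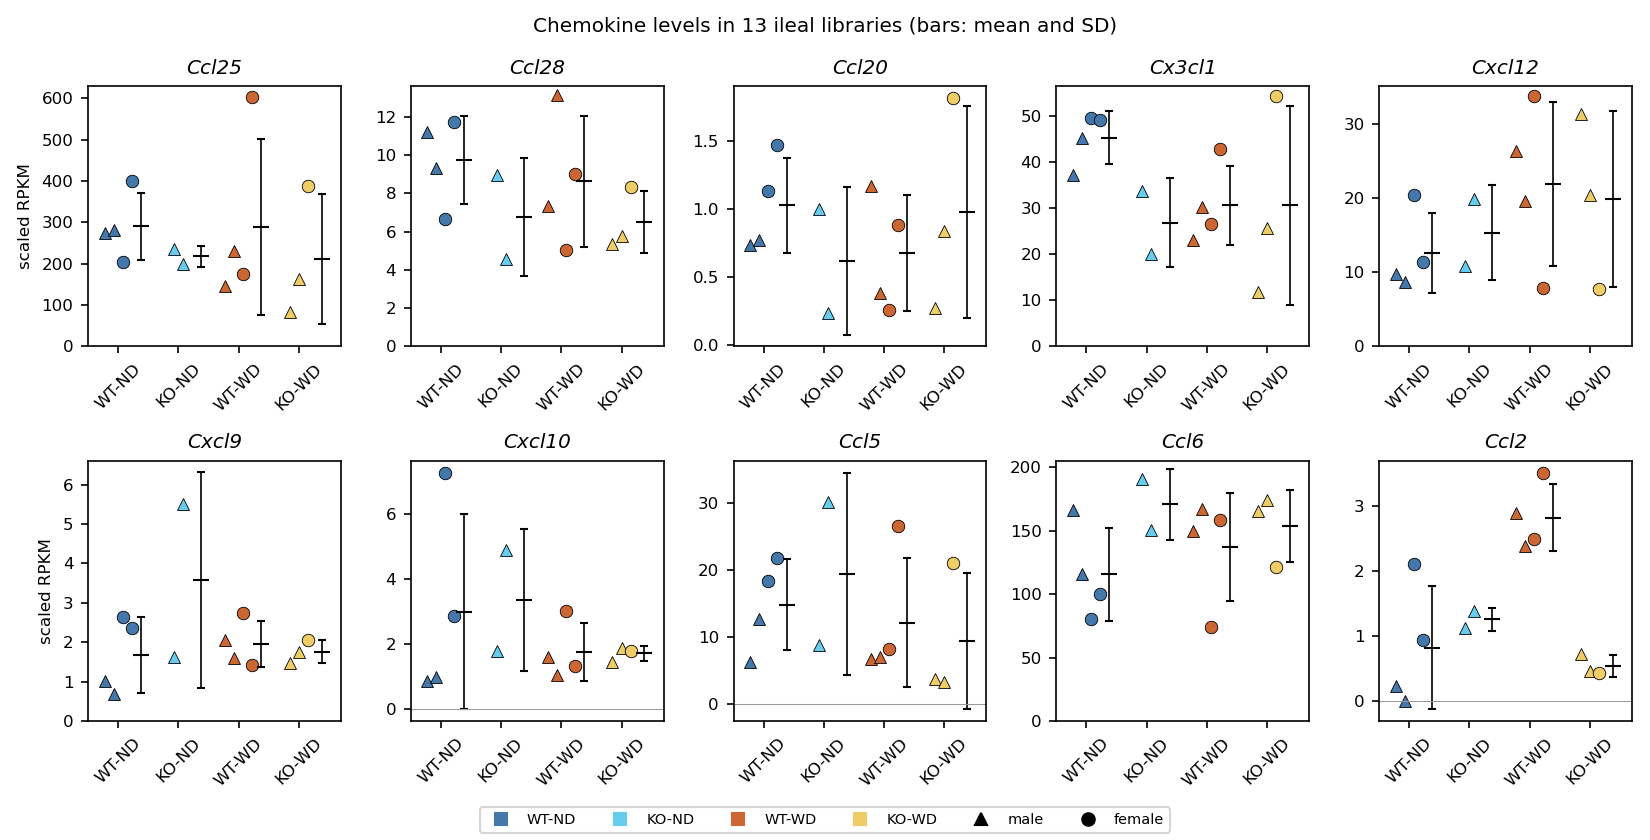
Scaled RPKM (vertical axes, linear) of the 10 chemokines in the 13 libraries, 1 panel per gene, with groups on the horizontal axes; triangles are males, circles females, and the bars give mean and SD. Ccl2 is the gene whose 4 WT-WD points (2.383 to 3.518) lie above every other library, while for most other genes the libraries of a group spread as widely as the groups.

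None of the 10 chemokines passed the threshold for a changed gene in any comparison. The threshold was a Benjamini-Hochberg adjusted p under 0.01 with a fold change of at least 2, from limma on log2(scaled RPKM + 0.5) over 19042 genes. None passed an adjusted p under 0.05 either. All 10 passed the filter on low values. Over all genes that threshold called 0.00525% for WD versus ND in WT, 0% for WD versus ND in KO, 0% for KO versus WT on ND, 0.0105% for KO versus WT on WD and 0% for the genotype by diet interaction. At an unadjusted p under 0.05, limma gave 1 of 10 chemokines for WD versus ND in WT, against 16% of all genes. It gave 0 of 10 for WD versus ND in KO (background 5.48%) and 0 of 10 for KO versus WT on ND (4.72%). On WD, KO versus WT gave 1 of 10 (2.60%), and the interaction gave 1 of 10 (1.45%). Ccl2 was that gene in all 3 cases. The 4 comparisons share groups with each other and are not independent.

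**Figure D2:**
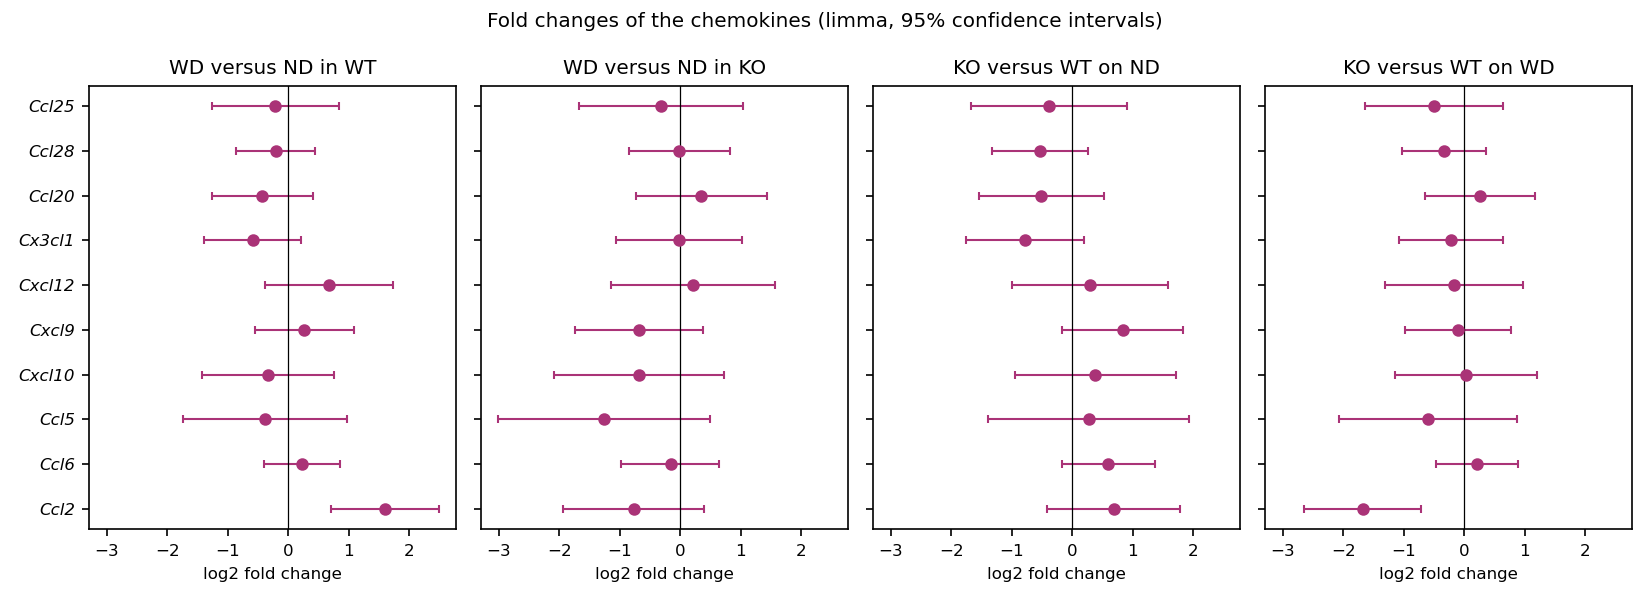
Log2 fold changes (horizontal axes, on the log2(scaled RPKM + 0.5) scale) of the 10 chemokines in the 4 comparisons, with points for limma's estimates and bars for 95% confidence intervals. The interval of Ccl2 excludes 0 for WD versus ND in WT (0.71 to 2.5) and for KO versus WT on WD (-2.65 to -0.71), and all other intervals include 0.

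Ccl2 (MCP-1, ENSMUSG00000035385.5, chr11:82035571-82037453 on GRCm38, plus strand, a protein-coding gene) is the main attractant of CCR2+ monocytes. In WT-ND its scaled RPKM was 0.234 in M1, 0 in M2, 2.115 in F1 and 0.93 in F2. In WT-WD it was 2.888 in M1, 2.383 in M2, 2.5 in F1 and 3.518 in F2. All 4 WT-WD libraries lay above all 4 WT-ND libraries, although the highest WT-ND value was close to the lowest WT-WD value. The 2 KO-ND libraries gave 1.129 and 1.381. The 3 KO-WD libraries gave 0.726 in M1, 0.463 in M2 and 0.424 in the female mean, below both KO-ND libraries. The library at 0 allows up to 0.45 (3 reads, counting error only).

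In WT, Ccl2 was higher on WD by 1.61 on the log2 scale (SE 0.415, fold 3.04, limma p = 0.00204, adjusted p = 0.114, two-sided exact permutation p = 0.0286, the smallest possible). In WD-fed mice it was lower in KO than in WT, with a log2 fold change of -1.68 (SE 0.448, fold 0.313, limma p = 0.00258, adjusted p = 1, exact permutation p = 0.0286). The interaction estimate was -2.37 (SE 0.677, interval -3.84 to -0.90, limma adjusted p = 1, unadjusted p under 0.05). Within KO the change on WD was -0.77 (95% confidence interval -1.93 to 0.39, exact permutation p = 0.1, the smallest possible). On ND, KO and WT overlapped (0.69, interval -0.41 to 1.79), but the KO-ND libraries are both male and lay above both WT-ND males, and in males alone the difference was 1.54 (limma adjusted p = 0.513). Groups did not overlap for 1 of 10 chemokines in each of the 4 comparisons, against 10.7% of all genes for WD versus ND in WT, 20.9% for WD versus ND in KO, 22.1% for KO versus WT on ND and 2.75% for KO versus WT on WD. That gene was Ccl2 except for KO versus WT on ND, where it was Cx3cl1. Males alone gave 2.38 for WD versus ND in WT (2 against 2 libraries, limma adjusted p = 0.134).

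The Ccl2 values of the WD-fed libraries had features that most genes lacked. For each library the RPKM of 1 read was found from genes with 1 transcript, so that the summed RPKM of a gene converts to reads. Ccl2 has 2 annotated transcripts (813 and 1096 bases) and both are in the table. Its totals were whole within 0.1 reads in 6 of 6 ND libraries (2, 0, 25 and 11 reads in WT-ND; 13 and 11 in KO-ND). In the WD libraries they were whole in 2 of 7. WT-WD M1 held 30 reads, but M2, F1 and F2 came to 27.18, 20.35 and 27.38. The totals were 5.43 in KO-WD M1, 4.62 in KO-WD M2 and 4 in the first KO-WD female column. Among genes with 2 transcripts, both in the table, and 3 to 50 reads, 80.3% to 85.0% of totals were whole in each library. The totals of 2 and 0 reads in WT-ND M1 and M2 lie outside that range, and a total of 0 is always whole. Only the ND totals of 25, 11, 13 and 11 reads can be set beside that share.

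The shorter transcript also carried 7 significant digits in WT-WD M2 (1.683346) and WT-WD F2 (2.447173). At most 6 digits were written for all but 169 of 770354 values, in 102 transcripts of 70 genes. No other chemokine described here had such a value, whereas Tas1r3 had 3. When transcripts with such a value were left out, Ccl2 fell under the filter on low values and was not tested. WT-WD M1, the WT-WD library with a whole total, was at a scaled RPKM of 2.888, against 2.115 in WT-ND F1, the highest of that group. This is a single library and decides nothing about the others. What part these values had in the Ccl2 result was not tested.

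**Figure D3:**
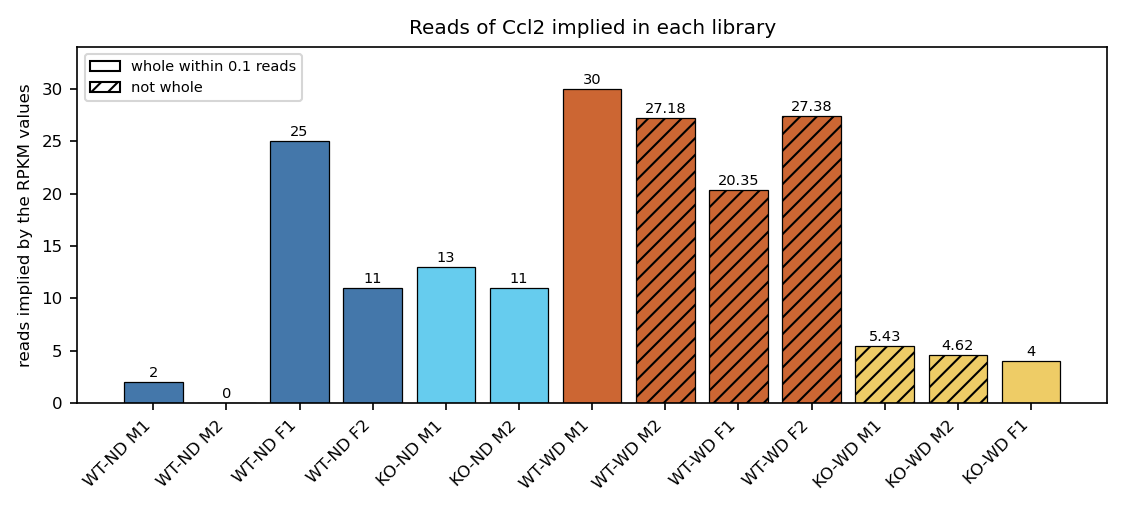
Reads of Ccl2 implied by the RPKM of its 2 transcripts (vertical axis) in each library (horizontal axis; the first female column stands for KO-WD females), with hatched bars for totals that were not whole within 0.1 reads. All 6 ND bars are plain, among them totals of 2 and 0 reads in WT-ND M1 and M2, and 5 of the 7 WD bars are hatched.

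The receptor gene Ccr2 was 0.566 ± 0.139 (scaled RPKM, SD, n = 4) in WT-ND, 1.15 ± 0.0402 (n = 2) in KO-ND, 1.23 ± 0.394 (n = 4) in WT-WD and 1.19 ± 0.467 (n = 3) in KO-WD. WD versus ND in WT gave a log2 difference of 0.68 for it (SE 0.249, limma adjusted p = 0.225). Macrophage markers (8 of 8 genes detected, among them Adgre1, Csf1r and Cd68) summed to 139.1 to 228.4 in WT-ND, 194.3 to 222.6 in KO-ND, 134.5 to 239.2 in WT-WD and 115.6 to 168.4 in KO-WD. In WD-fed mice 8 of 8 had lower estimates in KO than in WT, 3 of them at an unadjusted limma p under 0.05 (2.60% of all genes) and none after adjustment (median log2 fold change -0.458, against -0.014 for all genes). For WD versus ND in KO, 7 of 8 had lower estimates. Of the 9 T cell markers tested, 9 had higher estimates on WD in WT. Of these, 3 were at an unadjusted limma p under 0.05, a limit at which 6.24% of all genes were higher. On WD, 9 had lower estimates in KO than in WT, with 0 at that limit (2.60% of all genes). Their part in the Ccl2 differences was not tested.

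CXCL9 and CXCL10 both bind CXCR3 on activated T cells and are classic targets of interferon gamma. Their genes lie close to each other on chromosome 5, Cxcl9 (ENSMUSG00000029417.9) at chr5:92321347-92328079 and Cxcl10 (ENSMUSG00000034855.13) at chr5:92346638-92348889, both on the minus strand. Their levels moved together across libraries, so the 250 bases before each start are shown, from RefSeq on GRCm38.p6, minus strand, 5′ to 3′, with an ISRE core (GAAANNGAA) and matches to the kappa-B consensus in capitals.
Cxcl9, chr5:92328080-92328329: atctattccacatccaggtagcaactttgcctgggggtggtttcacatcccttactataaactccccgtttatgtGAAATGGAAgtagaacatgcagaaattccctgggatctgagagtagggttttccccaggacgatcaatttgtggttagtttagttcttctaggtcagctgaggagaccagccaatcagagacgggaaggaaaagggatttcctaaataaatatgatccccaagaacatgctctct
Cxcl10, chr5:92348890-92349139: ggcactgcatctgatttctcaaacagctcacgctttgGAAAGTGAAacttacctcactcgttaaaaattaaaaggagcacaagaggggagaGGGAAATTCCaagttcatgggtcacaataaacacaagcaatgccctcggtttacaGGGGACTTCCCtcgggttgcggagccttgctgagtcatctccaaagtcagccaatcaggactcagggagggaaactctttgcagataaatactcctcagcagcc

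Both windows hold 1 ISRE core, 175 bases before the start in Cxcl9 and 213 bases before it in Cxcl10. Cxcl10 also holds 3 matches to the kappa-B consensus, 2 of which overlap, and Cxcl9 holds none. Of 32851 promoter windows of the same length, 7.13% hold the ISRE core and 7.25% the kappa-B consensus on either strand. Windows were found for 8 of the 10 chemokines, and in addition to this pair only that of Ccl20 held a match (1 to kappa-B). The interferon gamma-activated site (TTCNNNGAA), held by 7.02% of windows, was found in none of the 8. Ccl2 and Ccl5 had no window.

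Cxcl9 was 1.028, 0.676, 2.627 and 2.36 in WT-ND M1, M2, F1 and F2. In WT-WD it was 2.047, 1.608, 2.743 and 1.424 in the same order. The 2 KO-ND males gave 1.635 and 5.518, and KO-WD gave 1.47 in M1, 1.763 in M2 and 2.044 in the females. The highest and lowest libraries were thus both on ND, and all groups overlapped. WD versus ND in WT differed by 0.27 on the log2 scale (interval -0.55 to 1.08), and KO versus WT on ND by 0.84 (interval -0.16 to 1.84, limma adjusted p = 0.893). The KO-ND value rests on M2: without that library the difference was 0.09, and without M1 it was 1.59 (limma adjusted p = 0.994).

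Cxcl10 was 0.87, 0.977, 7.263 and 2.85 in WT-ND M1, M2, F1 and F2, and 1.612, 1.049, 3.026 and 1.333 in WT-WD. KO-ND gave 1.796 and 4.877, and KO-WD gave 1.456, 1.881 and 1.792. The 3 KO-WD libraries were close together, whereas WT-ND spanned the whole range. Neither diet nor genotype passed: WD versus ND gave -0.33 in WT (interval -1.42 to 0.76) and -0.67 in KO (interval -2.08 to 0.73), and KO versus WT on WD gave 0.04 (interval -1.14 to 1.21). In males alone, KO versus WT on ND gave 1.31 for Cxcl10 and 1.42 for Cxcl9, with limma adjusted p of 0.519 and 0.523.

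Across the 13 libraries Cxcl9 and Cxcl10 correlated with r = 0.82 (permutation p = 0.00042, adjusted p = 0.0063 over 45 pairs of chemokines) and rho = 0.91 (permutation p = 4e-05, adjusted p = 0.0011). Without the 2 libraries farthest from the median of Cxcl9 r was 0.83, and after the group means were subtracted it was 0.88. The genes most like Cxcl9 among all tested, by r, were Irgm1 (0.864), H2-Q6 (0.857) and Igtp (0.847), interferon-induced GTPases and a class I histocompatibility gene. Those most like Cxcl10 were H2-Q4 (0.929), H2-Q7 (0.888) and Cyp26b1 (0.867). H2-Q genes are near-identical copies, so their separate values are uncertain. The receptor Cxcr3 stayed between means of 0.651 and 0.991 in the 4 groups. Of 8 interferon gamma signalling genes tested, 0 were higher and 1 was lower at an unadjusted p under 0.05 for WD versus ND in WT (Irf8, -0.64, SE 0.206, limma adjusted p = 0.175), against 16% of all genes in either direction, and none in the other comparisons.

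Among the epithelial chemokines, Ccl25 (ENSMUSG00000023235.14, chr8:4325210-4360020, plus strand) recruits CCR9+ lymphocytes to the small intestine. It was 275, 282, 205 and 399 in WT-ND M1, M2, F1 and F2, and 145.8, 229.5, 175 and 602 in WT-WD. KO-ND gave 235 and 199, and KO-WD gave 82.6, 163 and 387 in M1, M2 and the females. The highest and the lowest library were both WD-fed, 7.29 times apart. WD versus ND gave -0.21 in WT (interval -1.26 to 0.84) and -0.32 in KO (interval -1.68 to 1.04). KO versus WT gave -0.38 on ND (interval -1.67 to 0.91) and -0.49 on WD (interval -1.63 to 0.65). Its receptor Ccr9 had group means of 1.15 to 2.24.

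Cx3cl1 (fractalkine, ENSMUSG00000031778.13, chr8:94772009-94782427, plus strand) is a membrane-bound chemokine for CX3CR1+ phagocytes. It was 37.2, 45.2, 49.5 and 49.0 in WT-ND M1, M2, F1 and F2. In KO-ND it was 33.6 and 19.99, below all 4 WT-ND libraries. Both KO-ND libraries are male, and within WT-ND the males were below the females. WT-WD gave 22.98, 30.2, 26.6 and 42.7, and KO-WD gave 11.85, 25.7 and 54.2. The KO-WD libraries thus held both the lowest and the highest value of all. KO versus WT on ND gave -0.78 (SE 0.453, limma p = 0.109, adjusted p = 0.893, exact permutation p = 0.0667, the smallest possible). It was -0.41 without KO-ND M2 and -1.15 without KO-ND M1 (limma adjusted p of 1 and 0.994). WD versus ND in WT gave -0.59 (SE 0.370, limma p = 0.139, adjusted p = 0.46, exact permutation p = 0.0571). With RPKM as deposited and no scaling between libraries, the latter became -1.01 with an adjusted limma p of 0.0485, while the median of all genes was itself at -0.381. Its receptor Cx3cr1 averaged 3.402 over the 13 libraries.

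Ccl28 (ENSMUSG00000074715.3, chr13:119623819-119654359, plus strand), which recruits IgA-secreting cells through CCR10, varied least among the epithelial genes. It ranged from 6.645 to 11.7 in WT-ND, 4.586 to 8.954 in KO-ND, 5.043 to 13.1 in WT-WD and 5.359 to 8.34 in KO-WD. Its log2 differences lay between -0.53 and -0.01 in the 4 comparisons, each with an interval that included 0. Ccl20 (ENSMUSG00000026166.14, chr1:83116766-83119167, plus strand), the CCR6 ligand made over lymphoid follicles, ranged from 0.235 to 1.819. Its intervals reached from -1.54 to 1.43 over the 4 comparisons, and all of them included 0.

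Cxcl12 (ENSMUSG00000061353.11, chr6:117168535-117181367, plus strand) is the stromal ligand of CXCR4 and ACKR3. It was 9.825, 8.73, 20.5 and 11.4 in WT-ND M1, M2, F1 and F2, and 26.4, 19.6, 33.8 and 7.852 in WT-WD. KO-ND gave 10.84 and 19.9, and KO-WD gave 31.4, 20.5 and 7.675. In both WD groups a female library was the lowest. WD versus ND in WT gave 0.68 (interval -0.38 to 1.73, limma adjusted p = 0.522). Without WT-WD F2 the difference was 1.09 (limma adjusted p = 0.203). The receptors Cxcr4 (2.64) and Ackr3 (3.58) were among the most abundant chemokine receptors by mean scaled RPKM, with no limma p under 0.05 in any comparison.

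Ccl25, Cx3cl1 and Cxcl12 moved with marker lists across libraries. Over 150 relations between a chemokine and a marker list, each over the 13 libraries, Ccl25 correlated with ileal enterocyte markers (Fabp6, Slc10a2, Slc51a and Slc51b) at r = 0.95 (permutation p = 1e-05, the smallest possible, adjusted p = 0.00075) and rho = 0.89 (permutation p = 9e-05, adjusted p = 0.0034). Without the 2 farthest libraries r was 0.88, and within groups it was 0.95. Those markers summed to 10280 in WT-WD F2 and 899.5 in KO-WD M1, the libraries with the most and the least Ccl25. Cx3cl1 correlated with epithelium markers such as Epcam and Vil1 at r = 0.87 (permutation p = 0.00012, adjusted p = 0.003) and rho = 0.82 (permutation p = 0.00071, adjusted p = 0.013), with r = 0.81 without the 2 farthest libraries. Cxcl12 correlated with fibroblast markers such as Col1a1 and Pdgfra at r = 0.90 (permutation p = 3e-05, adjusted p = 0.0015) and rho = 0.92 (permutation p = 2e-05, adjusted p = 0.0015), with r = 0.86 without the 2 farthest libraries. These relations were not particular to a single list. Cxcl12 also followed endothelium markers (r = 0.87, adjusted permutation p = 0.0021) and ran against epithelium markers (r = -0.88, adjusted permutation p = 0.0015). Ccl25 ran against fibroblast markers (r = -0.93, adjusted permutation p = 0.00075). Cx3cl1 followed ileal enterocyte markers (r = 0.85, adjusted permutation p = 0.0042). It ran against fibroblast markers by r (-0.79, adjusted permutation p = 0.02), but rho did not pass (-0.71, adjusted permutation p = 0.074). Cx3cl1 also ran against plasma cell markers (r = -0.78, adjusted permutation p = 0.021, and rho = -0.82, adjusted permutation p = 0.017). Ccl28 ran against endothelium markers by r (-0.74, adjusted permutation p = 0.038), but rho did not pass (-0.73, adjusted permutation p = 0.064). Ccl28 and Ccl20 did not pass against the epithelium markers (r = 0.67, permutation p = 0.012, adjusted p = 0.087, and r = 0.59, permutation p = 0.034, adjusted p = 0.15; rho = 0.70 and 0.48, with adjusted permutation p of 0.085 and 0.28).

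Ccl25 and Cxcl12 ran opposite to each other (r = -0.85, permutation p = 5e-05, adjusted p = 0.0022, and rho = -0.90, permutation p = 5e-05, adjusted p = 0.0011, over 45 pairs), and r was -0.84 without the 2 farthest libraries and -0.91 within groups. Ccl25 and Cx3cl1 rose and fell together (r = 0.83, permutation p = 0.00034, adjusted p = 0.0063, and rho = 0.80, permutation p = 0.0015, adjusted p = 0.023), with r = 0.79 without the 2 farthest libraries. All points in these relations share a library and its scaling. The genes most like Cx3cl1 were Chp2 (r = 0.983), Sema4a (0.977) and Slc26a6 (0.975), those most like Ccl25 were Golt1a (0.972), Tspan15 (0.968) and Txndc17 (0.965), and those most like Cxcl12 were Igfbp5 (0.969), F2r (0.968) and Podxl (0.965). Epithelium markers summed to 4327 to 6722 in WT-ND, 4244 to 4321 in KO-ND, 2813 to 5074 in WT-WD and 2288 to 6038 in KO-WD, and fibroblast markers to 156 to 261 in WT-ND, 217.9 to 247.6 in KO-ND, 116 to 364.1 in WT-WD and 91.1 to 384.2 in KO-WD. For WD versus ND in WT, 7 of 7 epithelium markers had lower estimates, 2 of them at an unadjusted limma p under 0.05 (Krt8 and Cldn7, where 1852 of 19042 genes were lower at that limit). What part they had in the levels of Ccl25, Cx3cl1 and Cxcl12 was not tested.

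**Figure D4:**
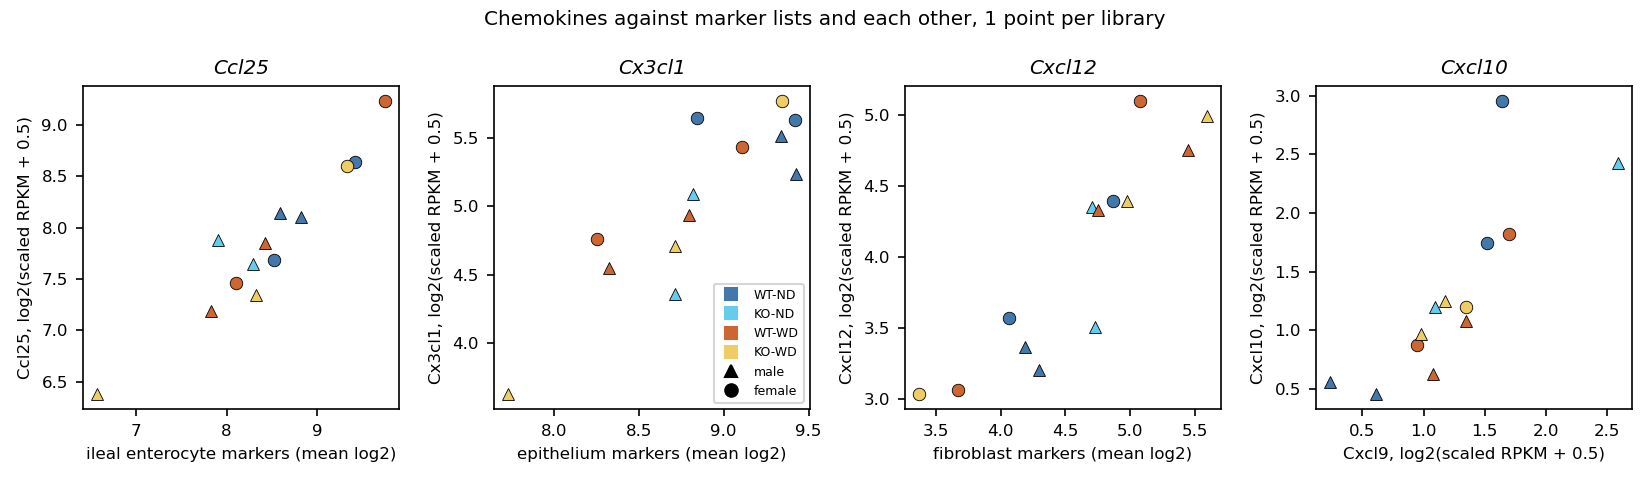
Levels of Ccl25, Cx3cl1 and Cxcl12 against the mean log2 level of ileal enterocyte, epithelium and fibroblast markers, and Cxcl10 against Cxcl9 (both axes log2 with a pseudocount of 0.5); each point is 1 of 13 libraries, coloured by group, with triangles for males and circles for females. The points run along a line in which the 4 groups are mixed, with r of 0.95, 0.87, 0.90 and 0.82.

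Ccl5 (RANTES, ENSMUSG00000035042.2, chr11:83525778-83530518, minus strand), a T cell and monocyte attractant made by cytotoxic lymphocytes, had the largest fold range of the 9 chemokines detected in every library, 9.13 from lowest to highest. In WT-ND it was 6.287 and 12.8 in the males and 18.5 and 21.7 in the females. In WT-WD it was 6.81 and 7.101 in the males and 8.266 and 26.6 in the females. KO-ND males gave 8.846 and 30.1, and KO-WD gave 3.833 and 3.302 in the males and 21.1 in the females. Within each of the 3 groups with both sexes, every female library exceeded every male one. The mean difference, female minus male, was 1.52 on the log2 scale (two-sided exact permutation of sex within groups, p = 0.00926, adjusted p = 0.0926 over the 10 chemokines, 5 female and 6 male libraries).

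The diet and genotype differences of Ccl5 did not pass. WD versus ND gave -0.38 in WT (interval -1.74 to 0.98) and -1.26 in KO (SE 0.810, interval -3.01 to 0.50, limma adjusted p = 0.955). The KO comparison sets 2 male libraries against 2 male and 1 female one. In males alone it was -2.06 (limma adjusted p = 0.227). It rests on KO-ND M2, since it was -0.40 without that library and -2.11 without M1. With the second KO-WD female library separated from the first, it was -0.83. KO versus WT on ND gave 0.28 (interval -1.39 to 1.94), and 0.83 in males alone. KO versus WT on WD gave -0.60 (interval -2.07 to 0.87), and -1.40 without the KO-WD females (limma adjusted p = 0.477). The genes most like Ccl5 were Oasl2 (r = 0.941), H2-DMa (0.922) and Gm5510 (0.891). T cell markers (10 genes) summed to 8.08 to 27.8 in WT-ND, 13.6 to 34 in KO-ND, 19.2 to 58.8 in WT-WD and 21.1 to 35.2 in KO-WD. Their r with Ccl5 was 0.51 (adjusted permutation p = 0.22). Larger values came from adipocyte (0.67), ileal enterocyte (0.66) and fibroblast markers (-0.65), among others, and these did not pass either (adjusted permutation p of 0.095, 0.083 and 0.12).

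Ccl6 (ENSMUSG00000018927.3, chr11:83587882-83593087, minus strand), a rodent chemokine of myeloid cells that binds CCR1, varied least of the 10, 2.57 times from lowest to highest. It was 166, 116, 80.4 and 99.96 in WT-ND M1, M2, F1 and F2, and 149.8, 167, 74.1 and 158 in WT-WD. KO-ND gave 191 and 151, and KO-WD gave 165, 174 and 121.5. In contrast to Ccl5, females were lower than males on average, by -0.55 on the log2 scale (exact permutation p = 0.0185, adjusted p = 0.0926). KO versus WT gave 0.60 on ND (interval -0.17 to 1.37; 0.29 in males alone) and 0.21 on WD (interval -0.46 to 0.89), and the diet differences were 0.23 in WT (interval -0.40 to 0.86) and -0.16 in KO (interval -0.97 to 0.65). The genes most like it were Defa-ps1 (r = 0.912), Defa-ps6 (0.897) and Ang4 (0.896), the last an antimicrobial ribonuclease of Paneth cells, and the defensin pseudogenes are near-identical copies with uncertain values. Against myeloid marker lists, r of Ccl6 was -0.46 for macrophage, -0.61 for neutrophil, 0.08 for dendritic cell, 0.51 for eosinophil and 0.35 for mast cell markers. None passed (adjusted permutation p of 0.29, 0.14, 0.9, 0.22 and 0.45), and which cells made Ccl6 was not tested. The receptor Ccr1 was 1.34 ± 0.357 (SD, n = 4) in WT-ND and 2.12 ± 0.259 (n = 4) in WT-WD, a log2 difference of 0.53 (SE 0.242, limma adjusted p = 0.312).

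The genes most like Ccl2 were Tusc3 (r = 0.901), Tnf (0.857) and Cd300ld (0.852), of which Tnf had 7 values with more than 6 digits. Those most like Ccl28 were Top1 (0.901), Vwce (0.894) and Neo1 (0.888). Ccl2 correlated with T cell markers at r = 0.73 (permutation p = 0.0053, adjusted p = 0.049 over 150 relations) and rho = 0.66 (permutation p = 0.018, adjusted p = 0.11). The relation was weaker without the 2 farthest libraries (r = 0.52), and r was 0.67 within groups. Of 4 neutrophil markers 2 were in the table (Csf3r and S100a9), and they summed to 0.515 to 1.658 in WT-ND, 0.949 to 1.259 in KO-ND, 0.743 to 2.018 in WT-WD and 0.134 to 0.609 in KO-WD. These sums were low, and S100a9 fell under the filter on low values. The sums of WT-WD and KO-WD did not overlap, in a comparison where groups did not overlap for 2.75% of all genes. Neutrophil markers correlated with Ccl2 at r = 0.72 (permutation p = 0.0062, adjusted p = 0.055) and rho = 0.73 (permutation p = 0.0059, adjusted p = 0.064), with r = 0.70 without the 2 farthest libraries and 0.61 within groups. Csf3r, the tested one, had a log2 difference of -0.82 for KO versus WT on WD (SE 0.347, limma adjusted p = 1). Their part in the Ccl2 differences was not tested.

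Of the receptors of these chemokines 9 of 11 were tested, and 2 had higher values at an unadjusted limma p under 0.05 for WD versus ND in WT (Ccr1 and Ccr2, where 6.24% of all genes were higher at that limit), with none in the other comparisons (median log2 fold change 0.296, against -0.006 for all genes). Of 27 other chemokine ligands 17 were tested and none passed adjustment. The B cell attractant Cxcl13 had means of 2.17 in WT-ND and 6.37 in WT-WD (log2 difference 1.52, SE 0.530, limma adjusted p = 0.207). Ccl8, a monocyte attractant, had means of 6.46 in KO-ND, 2.41 in WT-ND and 1.93 in KO-WD, with log2 differences of 1.36 for KO versus WT on ND (limma adjusted p = 0.893) and -1.58 for WD versus ND in KO (adjusted p = 0.887). Its interaction term was -1.75 (limma adjusted p = 1). Ccl9, a relative of Ccl6, was at 8.04 in KO-ND and 4.70 in WT-ND (0.79, SE 0.309, limma adjusted p = 0.893).

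The most abundant of the other ligands, by mean scaled RPKM, were Ccl21a (34.4), Cxcl14 (30.9), Cxcl16 (17.6), Pf4 (11.2) and Ccl11 (6.09), with no limma p under 0.05. Ccl21a has near-identical copies, so its value is uncertain. Of 12 other chemokine receptors 7 were tested, and 1 had a limma p under 0.05. This was Cxcr5, the receptor of CXCL13 on B cells, for WD versus ND in KO (1.86, SE 0.802, adjusted p = 0.902). In that comparison 5.48% of all genes passed the same limit. Cxcr5 had means of 0.0418 in KO-ND and 1.798 in KO-WD, against 1.79 in WT-ND and 1.715 in WT-WD. Both KO-ND libraries are male, and the WT-ND males were also low, at 0.2802 and 0.4603 RPKM before scaling. Ackr4 (9.84) and Ackr1 (3.56), atypical receptors that bind chemokines without signalling through G proteins, led the list of other receptors in level. Ccr7 (1.65), Cxcr5 (1.5) and Cxcr6 (1.498) followed.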

How the data were processed

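Ileal RNA of 16 labelled samples was sequenced on the Ion Proton platform. The authors mapped the reads with STAR in Partek Flow and quantified transcripts, per the study's methods; the labels name Partek and mm10. The deposited values are RPKM per transcript, made by the authors by dividing reads by transcript length and by a library total, which may be another total than that of RPKM. Names and lengths were matched to GENCODE M21 (98.2% of 59258 transcripts). No column lacked a sample. Transcripts were summed per gene. Between libraries, a scaling factor came from log ratios to a reference library, averaged after trimming (30% of ratios, 5% of levels). The 19042 genes that reached an RPKM of 1 in 2 or more of the 13 libraries were fitted on log2(scaled RPKM + 0.5) with limma 3.58.1 in R 4.3.3, all groups in 1 model with a mean-variance trend. Exact two-sided permutation tests used the same log2 values; the smallest p is 0.029 for 4 against 4 or 3, 0.067 for 4 against 2 and 0.1 for 3 against 2. Correlations used 100000 permutations in Python 3.11.15 with numpy and pandas. For reads, 1 read on 1 kb was an RPKM of 0.0692 to 0.139, found with a tolerance of 0.02 reads.

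The procedure was tested on simulated data for KO versus WT on WD over 19042 genes: of 200 genes changed by a log2 value of 1.5, 74 were recovered with 0 false calls, and of 200 changed by 3, 174 with 3 false calls. The chemokines, gene lists and tests were chosen with earlier results of these data known. All 10 chemokines are named in each comparison; genes of the related lists are named at an unadjusted p under 0.05 or among the 5 highest of their list, and the 3 most alike genes by Pearson r for chemokines with a mean RPKM of at least 1. The check of whole totals and the test between sexes were chosen after the values were seen. For markers, 15 lists were summed in each library. Alternatives were other scalings, pseudocounts, filters, a sex term, a replicate block, the 2 groups alone, males only, other treatments of the related columns and digits, no trend, and each library left out.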

Additional observations from a re-analysis of the deposited data

Results flagged for a closer look

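Ccl5 stood out in 1 library of WT-WD: F2 had a scaled RPKM of 26.6, far above the other 3 libraries of the group, which lay between 6.81 and 8.266. Of 20 groups of 4 libraries looked at over the 10 chemokines, chance alone would be expected to mark about 1 in 20. The same library also had the highest Ccl25, the highest summed ileal enterocyte markers (10280) and the highest summed T cell markers (58.8).

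The estimated diet effects on Ccl2 in KO and WT differed by -2.37 on the log2 scale (SE 0.677), at an unadjusted limma p under 0.05 but not after adjustment over 19042 genes (adjusted p = 1). Ccl2 was higher on WD in WT (4 of 4 libraries above all WT-ND libraries), while in KO the estimate on WD was -0.77 (interval -1.93 to 0.39, limma adjusted p = 0.965), with 3 of 3 KO-WD libraries below both KO-ND libraries in a comparison where groups did not overlap for 20.9% of all genes. The read totals of Ccl2 were whole in 6 of 6 ND libraries, among them totals of 2 and 0 reads, and in 2 of 7 WD libraries. The part of these totals in the interaction was not tested.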

How the results depend on the processing

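No chemokine was called in any comparison under any alternative at an adjusted p under 0.01 with a fold change of at least 2. The counts at an unadjusted limma p under 0.05 changed as follows, from 1 for WD versus ND in WT, 0 for WD versus ND in KO, 0 for KO versus WT on ND, 1 for KO versus WT on WD and 1 for the interaction. RPKM as deposited gave 3 for WD versus ND in WT (Ccl2, Ccl28 and Cx3cl1) and 1 for KO versus WT on ND (Cx3cl1), where 32.8% and 9% of all genes passed. A mean RPKM of at least 5, and leaving out transcripts of more than 6 digits, each gave 0 for WD versus ND in WT, KO versus WT on WD and the interaction, since Ccl2 was then not tested. The replicate block and sex as a covariate each gave 1 for WD versus ND in KO (Ccl5) and 1 for KO versus WT on ND (Cxcl9), against 8.8% and 3.94% of all genes with the block and 8.63% and 3.83% with sex. The labels do not say that replicate numbers pair the samples, and correlations of same-numbered libraries ran from -0.202 to 0.57. The 2 groups alone gave 2 for WD versus ND in WT and 1 for KO versus WT on ND (16.7% and 11.8% of all genes). Males only gave 2, 2 and 3 for WD versus ND in WT, WD versus ND in KO and KO versus WT on ND (17.9%, 14% and 9.2%). All 16 columns as labelled gave 1 for WD versus ND in KO and 2 for KO versus WT on ND (17.4% and 14.2%). Leaving out the KO-WD female columns gave 1, 1 and 3 for WD versus ND in KO, KO versus WT on ND and KO versus WT on WD (9.54%, 7.53% and 10.2%). With each library left out in turn the counts ran from 1 to 2 for WD versus ND in WT, 0 to 1 for WD versus ND in KO, 0 to 2 for KO versus WT on ND, 1 to 3 for KO versus WT on WD and 1 to 2 for the interaction. The shares of all genes past that limit ran, in the same order, from 10.9% to 20.3%, 2.87% to 9.54%, 2.22% to 7.53%, 1.56% to 10.2% and 1.07% to 3.68%. The count of 3 came without the KO-WD females, where the share was 10.2%. The cause was not tested in the other cases. In addition, 2 single values passed a limma adjusted p of 0.05 under 1 alternative each. They were Ccl2 for WD versus ND in WT with all 16 columns (0.0322) and Cx3cl1 in the same comparison with RPKM as deposited (0.0485). The 16 columns count the KO-ND female columns and both related KO-WD female columns as separate libraries. The value of 0.0322 therefore does not rest on independent libraries alone.

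The Ccl2 difference ran from 1.20 to 2.46 over 27 alternatives for WD versus ND in WT and from -2.21 to -1.31 for KO versus WT on WD, always in the main direction and always at an unadjusted p under 0.05, where Ccl2 was tested. Splitting the second KO-WD female library from the first, an alternative chosen after the data were seen, gave -1.80 for the latter. Without scaling, the median of all genes moved to -0.381 and -0.347 for the diet comparisons and to -0.137 and -0.118 for the genotype ones, and the share of higher genes at an unadjusted p under 0.05 from 39.1%, 45.4%, 42.3%, 62.5% and 52% to 2.65%, 2.09%, 9.98%, 24.4% and 64.4% for WD versus ND in WT, WD versus ND in KO, KO versus WT on ND, KO versus WT on WD and the interaction. Counts of 0 to 30 reads limit Ccl2 and Ccl20.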
